A study of Mus musculus with 16 samples.

Results

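The endothelial genes are 35 genes that mark blood vessel lining, and they were followed through Head and Tail parts of mouse embryos at E10.5. They were chosen by name as known markers, with earlier results of these data known, and matched to the counts by Ensembl identifier. Shares of the members set beside those of all genes are therefore a description. All 35 were found among 54838 identifiers, and all 35 were among the 21284 genes that passed the filter on low counts. Libraries came from 8 groups of n = 2. Each region had a WT (wild type) group, a Gpr161 KO, a Fuz KO and the Fuz:Gpr161 DKO that lacks both genes, written DKO here. The Head is the part above the third branchial arches and the Tail is the part below the forelimbs, and no group was treated. The labels give no strain or allele for any group, do not say whether the mutations are confined to a tissue, and do not give whether a group's 2 libraries came from separate embryos. In Gpr161 KO the 2 libraries of each region differed in sex, so they came from different embryos. In the other groups the spread may be technical. The p-values therefore measure only the spread between these libraries. Each library holds RNA of a whole embryo part, in which fewer endothelial cells and less RNA per endothelial cell cannot be told apart.

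Endothelial cells line every blood vessel. In the embryo they arise from mesoderm, assemble into tubes under signals of the vascular endothelial growth factor (VEGF) family, and take arterial, venous, lymphatic or endocardial fates with the help of Notch signalling and of transcription factors of the ETS and SOX families. Junction proteins such as VE-cadherin hold the cells together, and angiopoietin receptors and their partners stabilise the vessel. Fuz encodes a protein needed to build primary cilia, and Gpr161 encodes a ciliary receptor that restrains Hedgehog signalling. The design asks how loss of either gene or of both changes expression in the anterior and the posterior embryo.

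Total counts ran from 39062489 to 53680317 per library, with a median of 41951619.5. As a check of the labels, Gpr161 was at 2.13 to 5.44 CPM (counts scaled to the library's adjusted total) in the 8 libraries labelled Gpr161 KO or DKO and at 24.3 to 55.0 CPM in the other 8, where Head and Tail Fuz KO 1 had 25.4 and 24.3 CPM and the other 6 had 42.7 CPM or more, and Fuz was at 0.808 to 1.89 CPM in the libraries labelled Fuz KO or DKO and at 4.95 to 9.22 CPM in the others. By Xist and the Y-linked gene Ddx3y, WT libraries were female and Fuz KO and DKO libraries male, with 1 male (number 1) and 1 female (number 2) in each region of Gpr161 KO, so sex and genotype cannot be told apart for Fuz KO and DKO against WT. Apln is the only member on the X chromosome. The libraries numbered 1 of Fuz KO and DKO stood apart in both regions in 23 genes of hypoxia and glycolysis. The median of these genes lay 1.85 to 2.67 above the WT mean of the region on the log2 scale there. It lay 0.14 to 0.62 above that mean in the libraries numbered 2 of Fuz KO and DKO. In Gpr161 KO it lay 0.76 to 1.39 above it in the Head and 0.45 to 1.13 above it in the Tail.

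In the Head, the endothelial genes were higher in Gpr161 KO than in WT and lower again in DKO. Against Head WT, 6 of 35 members rose in Head Gpr161 KO and 0 fell, at an adjusted p under 0.05 in edgeR's quasi-likelihood test. Of all 21284 genes tested, 1.51% rose. The 6 were Plvap, Cdh5, Sox18, Erg, Eng and Notch4. The median log2 fold change was 0.66 over the 35 members and 0.01 over all genes, and 34 of 35 members had a value above 0 (50.9% of all genes did), with Cd34 the exception at -0.30. In 31 of 35 members (88.6%) both Gpr161 KO libraries lay above both WT libraries, a pattern found in 28.4% of all genes. The summed level of the members was 1120 to 1297 CPM in Head Gpr161 KO and 775 to 819 CPM in Head WT. The 6 calls depended on single libraries: 0 members passed without Head WT 1, without Head WT 2 or without Head Gpr161 KO 1, and 2 passed without Head Gpr161 KO 2. With both Gpr161 KO 1 libraries left out the members' median was 0.44, with 0 called.

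In Head DKO, which carries the same loss of Gpr161 together with that of Fuz, the members lay on both sides of their WT levels. Their log2 fold changes against Head WT ran from -1.90 (Lyve1) to 2.02 (Esm1) with a median of 0.03. Both DKO libraries were above both WT libraries in 8 of 35 members (22.9%), near the 21.3% of all genes. They were below them in 7 (20%), near the 19.1% of all genes. Against Head Gpr161 KO, 9 of 35 members fell in Head DKO and 0 rose, where 3.13% of all genes fell. The 9 were Cdh5, Plvap, Flt4, Rasip1, Sox18, Tek, Tie1, Mmrn2 and Notch4. The median was -0.63 over the members and 0.01 over all genes. In 25 of 35 members (71.4%) both DKO libraries lay below both Gpr161 KO libraries, against 25.8% of all genes. This comparison shares the Head Gpr161 KO libraries with the one above. Without 1 library at a time the count was 2 (Head Gpr161 KO 1), 4 (Head Gpr161 KO 2), 1 (Head DKO 1) and 4 (Head DKO 2). DESeq2 called 14 members in this comparison and 9 in Head Gpr161 KO against WT, and the share of all genes it called is not given.

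**Figure D1:**
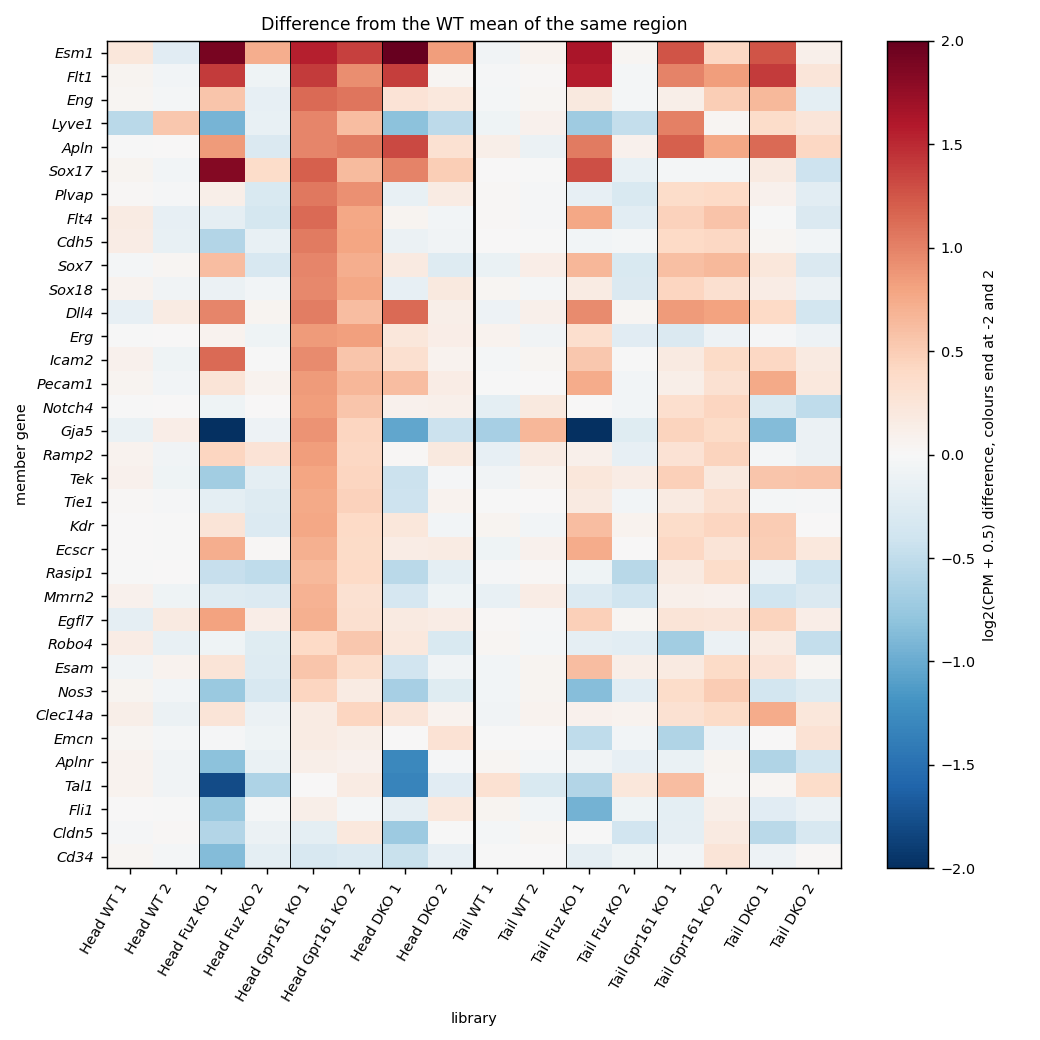
Differences of log2(CPM + 0.5) from the WT mean of the same region for the 35 members (rows, ordered by their value in Head Gpr161 KO) in the 16 libraries (columns), with colours ending at -2 and 2. The Head Gpr161 KO columns are higher for nearly all members, and the Fuz KO 1 and DKO 1 columns mix higher and lower members.

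Against Head WT, no member was called in Fuz KO or in DKO. In Head Fuz KO, 0 of 35 were called by edgeR or DESeq2, where 0.047% of all genes were called by edgeR. The median was -0.06. At an unadjusted p under 0.05, 3 members (8.57%) were higher and 5 (14.3%) lower, against 4.95% and 3.22% of all genes. Without Head Fuz KO 2, which leaves the library of the highest hypoxia median, 7 were called: Sox17, Egfl7 and Icam2 higher, and Cdh5, Tal1, Tek and Cd34 lower. In Head DKO, 0 of 35 were called by either tool, where 0.0329% of all genes were called, with a median of 0.03. At an unadjusted p under 0.05, 1 member (2.86%) was higher there, Esm1, and 0 were lower, against 1.97% and 2.36% of all genes. Between Head DKO and Head Fuz KO, 0 of 35 members were called by either tool and 0 had an unadjusted p under 0.05. Of all genes 0.0282% were called there, and 1.16% were higher and 1.74% lower at that p. The median of that difference was 0.09.

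Whether the DKO departs from adding up both single mutants' log2 effects was tested as a comparison added after values had been seen. In the Head, 0 of 35 members were called by edgeR, where 0.164% of all genes were called. The median was -0.62 over the members and -0.03 over all genes, and 13 members were lower and 0 higher at an unadjusted p under 0.05, where 5.22% of all genes were lower and 2.8% higher. Plvap had the lowest p of the members, with a log2 departure of -0.90 ± 0.22 (SE; adjusted p = 0.18), and DESeq2 called it at an adjusted p of 0.0293. Without Head Fuz KO 2, 3 members were called, namely Plvap and Icam2 lower and Cd34 higher.

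**Figure D2:**
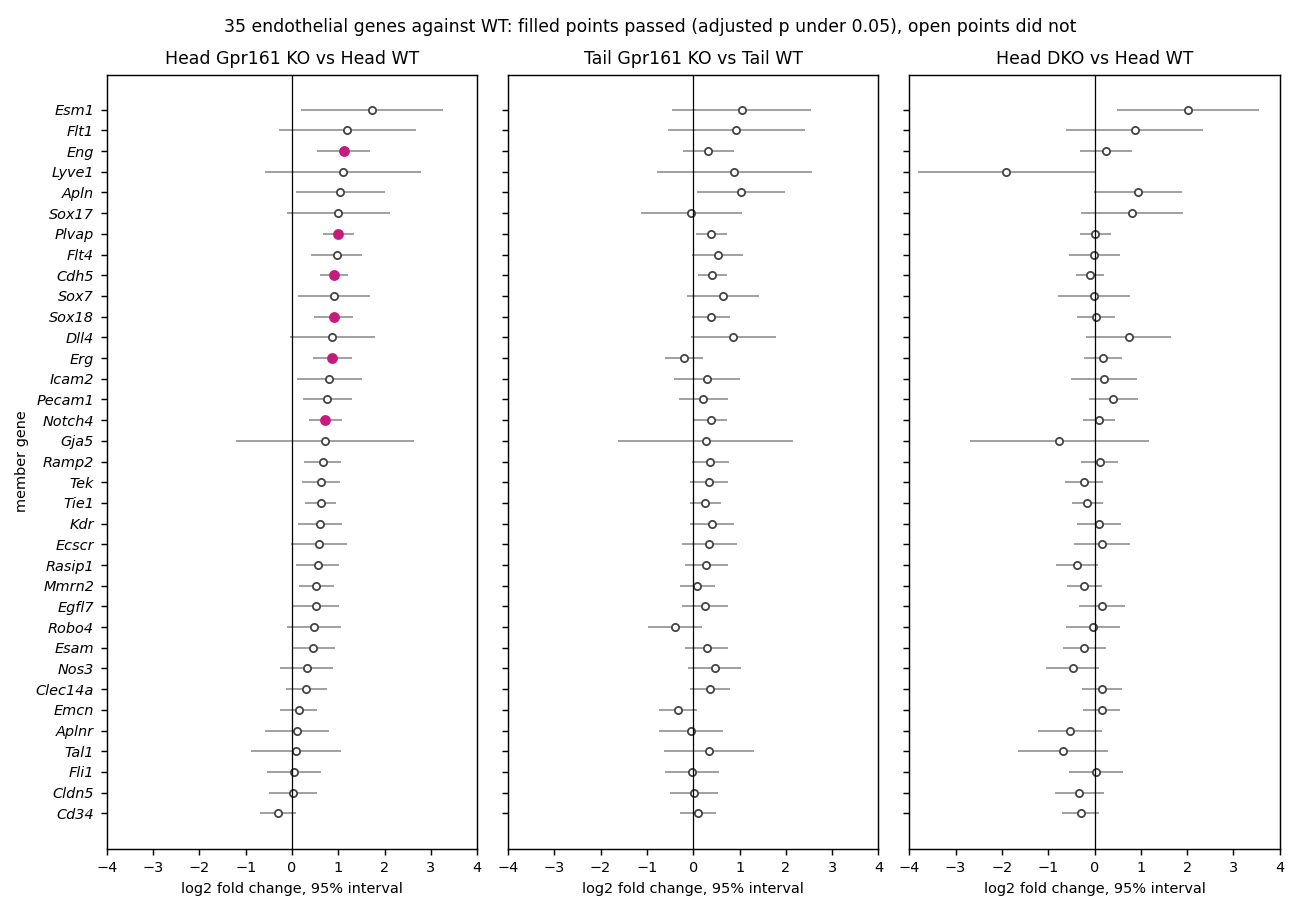
Log2 fold changes of the 35 members against WT (points) with 95% intervals (lines) in Head Gpr161 KO, Tail Gpr161 KO and Head DKO, ordered by the first. Filled points passed at an adjusted p under 0.05: 6 in the first panel and 0 in the others; both Head panels share the Head WT libraries.

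In Tail Gpr161 KO the members' median was also above 0 and smaller than in the Head. There, 29 of 35 members had a value above 0 (50.1% of all genes did) and 6 below, among them Erg, which rose in the Head. Of the 35 members, 0 were called by edgeR or DESeq2, where 0.305% of all genes were called by edgeR. At an unadjusted p under 0.05, 4 members (11.4%) were higher, namely Cdh5, Plvap, Apln and Notch4, and 0 were lower. Of all genes, 3.01% were higher and 3.97% lower at that p. The median was 0.33 over the members and 0.00 over all genes. In 23 of 35 members (65.7%) both Tail Gpr161 KO libraries lay above both WT libraries, against 22.6% of all genes. With the Fuz KO 1 and DKO 1 libraries of both regions left out of the fit 3 members were called higher (Plvap, Flt1 and Apln). The difference of the Gpr161 KO effect, Tail minus Head, was called in 0 of 35 members, where 0.094% of all genes were called. Its median was -0.29 over the members (-0.11 with library 1 of Head Gpr161 KO left out and -0.455 with library 2 left out) and -0.02 over all genes. Of the 35 members, 31 (88.6%) had a value below 0, where 52.1% of all genes did. At an unadjusted p under 0.05, 0 members were higher and 4 lower (1.41% and 3.85% of all genes). The members were not tested as a set, and in edgeR's test no single member was shown to differ between the regions. Erg was closest to the threshold in that test and is given with the transcription factors.

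The other Tail comparisons gave no call in the members. In Tail Fuz KO 0 of 35 were called by either tool, 0 had an unadjusted p under 0.05 and the median was 0.07. Of all genes 0.0094% were called, and 2.36% were higher and 2.85% lower at that p. In Tail DKO 0 were called by either tool, 2 were higher (Tek and Clec14a) and 1 lower (Notch4) at an unadjusted p under 0.05 (2.63% and 4.56% of all genes), and the median was -0.01, where 0.0423% of all genes were called. Tail DKO against Tail Gpr161 KO gave 0 calls in edgeR and 1 in DESeq2, with 1 member higher and 8 lower at an unadjusted p under 0.05 (5.19% and 7.01% of all genes) and a median of -0.15, where 0.522% of all genes were called. The 1 call of DESeq2 was Notch4. Without both Fuz KO 1 and both DKO 1 libraries, 8 members were called there, 7 lower and Emcn higher. Tail DKO against Tail Fuz KO gave 0 calls in both tools, with 2 members higher and 1 lower at that p (1.61% and 2.08%) and a median of 0.02, where 0.0329% of all genes were called. The Tail departure from additivity gave 0 calls in both tools, with 1 member higher and 3 lower at that p (3.29% and 2.96%) and a median of -0.26, where 0.0423% of all genes were called. Without Tail Fuz KO 2, Flt4 was called lower there. The differences of the Fuz KO and DKO effects between regions gave 0 calls in both tools, where 0% of all genes were called by edgeR. At an unadjusted p under 0.05 the Fuz KO difference had 1 member higher and 0 lower (1.07% and 1.05% of all genes), and the DKO difference 1 higher and 1 lower (1.66% and 1.59%).

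Between the regions of WT embryos, the endothelial genes were mostly lower in the Head. Of the 35, 3 were lower in Head WT than in Tail WT and 0 were higher, where 1.74% of all genes were lower. The 3 were Erg, Plvap and Emcn. The median was -0.36 over the members and -0.02 over all genes, and 31 of 35 had a value below 0 (52.1% of all genes did). In 26 of 35 members (74.3%) both Head WT libraries lay below both Tail WT libraries, against 27.9% of all genes. The count was 1, Erg, without each of Head WT 1, Head WT 2, Tail WT 1 and Tail WT 2, and 10 with the library number within a genotype as a block, which pairs Head and Tail. That the same number pairs Head and Tail of WT in this block is an assumption. Per kilobase of exon, Plvap was the highest member in both regions, at 20.8 CPM per kb in Head WT (libraries at 20.5 and 21.2) and 34.3 CPM per kb in Tail WT (33.8 and 34.8). Cldn5, a claudin of tight junctions, followed at 20.4 in the Head (20.0 and 20.9), whose libraries overlap those of Plvap, and at 29.9 in the Tail (29.0 and 30.8), whose libraries do not. Cdh5 was next at 16.2 and 22.0 CPM per kb. Lyve1, Esm1 and Sox17 were the lowest 3 in the Head, at 0.215, 0.73 and 1.09 CPM per kb. Lyve1 is the only member under 1 CPM in any library, with 2 to 84 counts, and the lowest count of any other member was 52 (Esm1).

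**Figure D3:**
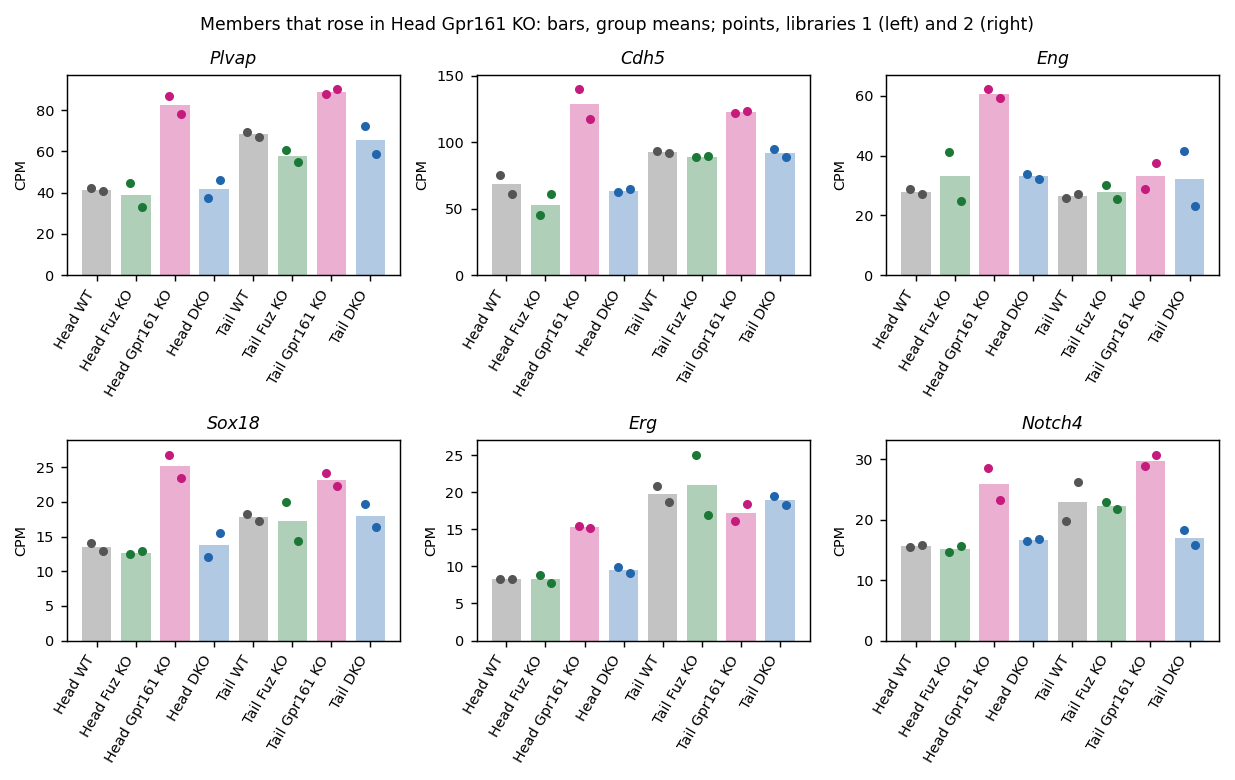
CPM of the 6 members that rose in Head Gpr161 KO, with group means as bars and the 2 libraries of a group as points. Both Head Gpr161 KO points lie above the other 6 Head libraries in each panel, while in the Tail Erg and Eng do not show this.

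The 7 called members with a single start in RefSeq's promoter table (GRCm38.p6) are shown with the 250 bases before that start, to set the sequences of called members side by side. They passed in different comparisons: Emcn between the WT regions, Eng in Head Gpr161 KO against WT, Flt4, Tek, Tie1 and Rasip1 in Head DKO against Head Gpr161 KO, and Notch4 in both of these Head comparisons. Capitals mark AGGAAG or its complement CTTCCT, the letters bound by many ETS factors, the family of Erg and Fli1.
Flt4 (chr11:49609429-49609678, plus strand): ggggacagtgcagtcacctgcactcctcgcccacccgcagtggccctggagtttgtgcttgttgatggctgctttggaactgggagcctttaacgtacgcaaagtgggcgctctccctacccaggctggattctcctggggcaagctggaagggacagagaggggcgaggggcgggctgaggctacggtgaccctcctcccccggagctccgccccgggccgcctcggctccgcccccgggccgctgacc
Tek (chr4:94739039-94739288, plus strand): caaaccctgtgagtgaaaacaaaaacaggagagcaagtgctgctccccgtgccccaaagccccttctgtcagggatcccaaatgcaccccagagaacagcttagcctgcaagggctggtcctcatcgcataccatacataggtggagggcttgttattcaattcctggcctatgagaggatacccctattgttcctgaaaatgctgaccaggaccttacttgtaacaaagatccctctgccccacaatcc
Tie1 (chr4:118489850-118490099, minus strand): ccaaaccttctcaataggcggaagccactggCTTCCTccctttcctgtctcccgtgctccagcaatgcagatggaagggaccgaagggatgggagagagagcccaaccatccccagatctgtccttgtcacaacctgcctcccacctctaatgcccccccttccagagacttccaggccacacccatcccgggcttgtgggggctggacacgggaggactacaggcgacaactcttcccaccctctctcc
Emcn (chr3:137340828-137341077, plus strand): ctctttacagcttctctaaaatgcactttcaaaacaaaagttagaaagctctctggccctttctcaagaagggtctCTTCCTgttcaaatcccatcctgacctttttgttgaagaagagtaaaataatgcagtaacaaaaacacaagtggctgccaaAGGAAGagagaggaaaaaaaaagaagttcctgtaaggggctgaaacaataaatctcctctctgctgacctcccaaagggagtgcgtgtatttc
Eng (chr2:32646345-32646594, plus strand): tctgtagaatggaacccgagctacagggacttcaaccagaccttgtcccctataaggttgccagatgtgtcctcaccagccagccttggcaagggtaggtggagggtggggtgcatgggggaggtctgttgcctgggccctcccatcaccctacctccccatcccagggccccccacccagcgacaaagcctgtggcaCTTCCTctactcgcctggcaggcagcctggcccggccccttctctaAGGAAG
Rasip1 (chr7:45627287-45627536, plus strand): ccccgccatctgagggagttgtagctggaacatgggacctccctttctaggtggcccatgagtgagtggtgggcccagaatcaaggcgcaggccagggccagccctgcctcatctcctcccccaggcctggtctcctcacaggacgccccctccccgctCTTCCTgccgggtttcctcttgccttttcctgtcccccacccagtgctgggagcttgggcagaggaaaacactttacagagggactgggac
Notch4 (chr17:34564045-34564294, plus strand): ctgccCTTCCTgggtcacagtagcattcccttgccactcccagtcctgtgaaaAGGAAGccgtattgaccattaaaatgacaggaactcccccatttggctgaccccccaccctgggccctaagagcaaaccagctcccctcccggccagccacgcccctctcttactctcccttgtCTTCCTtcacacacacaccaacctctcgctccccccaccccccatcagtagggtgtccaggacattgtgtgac

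The 7 sequences differ in these letters. AGGAAG stood on either strand in 5 of the 7, with 3 copies in Notch4 and none in Flt4 or Tek. Over all members, 20 of 35 had an entry, with 25 promoters, of which 13 (52%) held AGGAAG, against 29.5% of 32851 promoters of the same length. ACAAT, letters of SOX-type sites, stood in 7 of the 25 and in 27.7% of all, ACGTG, the core of hypoxia-factor sites, in 1 of the 25 and in 16.6% of all, and TGGGTGGTC, a Gli-type string, in 0 of the 25 and in 0.225% of all. These 4 were kept after 18 distinct strings had been looked at on 300-base windows with the members' shares in view, of which 11 had a higher share in the members, so the shares are a description. A match is no evidence of binding. Plvap, Cdh5, Sox18 and Mmrn2 had no entry in the table, and Erg had several starts.

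Among the junction and surface proteins, Cdh5 encodes VE-cadherin, the adherens junction protein of endothelium. Cdh5 in the Head had 75.2 and 61.1 CPM (WT), 45.2 and 61.0 (Fuz KO), 139.6 and 117 (Gpr161 KO), and 62.4 and 64.7 (DKO). Both Head Gpr161 KO libraries lay above the other 6 Head libraries. Cdh5 rose in Head Gpr161 KO, with a log2 fold change of 0.91 ± 0.14 (SE; adjusted p = 0.00633, and from 0.0174 to 0.148 with 1 library left out) and was lower in Head DKO than in Head Gpr161 KO, with a log2 fold change of -1.01 ± 0.14 (SE; adjusted p = 0.00197, and from 0.00565 to 0.0358 with 1 library left out). Cdh5 in the Tail had 93.1 and 91.5 CPM (WT), 88.6 and 89.6 (Fuz KO), 122 and 124 (Gpr161 KO), and 94.98 and 88.9 (DKO). Both Tail Gpr161 KO libraries were again the highest, at a log2 fold change of 0.41 ± 0.14 (SE; adjusted p = 0.456) against Tail WT.

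Plvap encodes the protein of the diaphragms that span endothelial fenestrae and caveolae. Plvap in the Head had 42.1 and 40.7 CPM (WT), 44.9 and 33.2 (Fuz KO), 86.8 and 78.1 (Gpr161 KO), and 37.3 and 46.3 (DKO). The Gpr161 KO libraries did not overlap any other Head group. Plvap rose in Head Gpr161 KO, with a log2 fold change of 1.00 ± 0.16 (SE; adjusted p = 0.00622, and from 0.0196 to 0.0945 with 1 library left out), and Head DKO was lower than Head Gpr161 KO, with a log2 fold change of -0.98 ± 0.16 (SE; adjusted p = 0.00394, and from 0.0138 to 0.0586 with 1 library left out). Plvap in the Tail had 69.2 and 67.2 CPM (WT), 60.7 and 54.9 (Fuz KO), 87.7 and 90.0 (Gpr161 KO), and 72.3 and 58.7 (DKO). Tail Gpr161 KO was above the other Tail groups, at a log2 fold change of 0.38 ± 0.15 (SE; adjusted p = 0.597) against WT. Head WT was lower than Tail WT, with a log2 fold change of -0.72 ± 0.16 (SE; adjusted p = 0.0193, and from 0.0664 to 0.167 with 1 library left out).

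Emcn encodes endomucin, a sialomucin of veins and capillaries. Emcn in the Head had 21.1 and 20.0 CPM (WT), 20.2 and 19.2 (Fuz KO), 23.0 and 22.3 (Gpr161 KO), and 20.5 and 25.1 (DKO). In the Head, both Gpr161 KO libraries were above all WT and Fuz KO libraries, and both DKO libraries were above Fuz KO and overlapped WT and Gpr161 KO. Emcn in the Tail had 36.3 and 36.8 CPM (WT), 25.7 and 35.2 (Fuz KO), 24.0 and 33.9 (Gpr161 KO), and 36.9 and 44.6 (DKO). Head WT was lower than Tail WT, with a log2 fold change of -0.83 ± 0.19 (SE; adjusted p = 0.0275, and from 0.108 to 0.219 with 1 library left out). Against WT, Emcn was at a log2 fold change of 0.14 ± 0.19 (SE; adjusted p = 0.836) in Head Gpr161 KO and at a log2 fold change of -0.34 ± 0.19 (SE; adjusted p = 0.849) in Tail Gpr161 KO.

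Esam encodes an adhesion molecule of endothelial tight junctions. Esam in the Head had 15.1 and 16.6 CPM (WT), 19.0 and 13.1 (Fuz KO), 23.4 and 20.3 (Gpr161 KO), and 12.1 and 15.1 (DKO). Gpr161 KO was the highest Head group without overlap, at a log2 fold change of 0.46 ± 0.22 (SE; adjusted p = 0.39). Esam in the Tail had 17.4 and 18.7 CPM (WT), 27.9 and 19.6 (Fuz KO), 20.6 and 23.7 (Gpr161 KO), and 22.0 and 18.6 (DKO). The Tail groups overlapped apart from WT, which lay below Fuz KO and Gpr161 KO.

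Cd34 encodes a sialomucin of endothelium and of blood progenitors, and was the member lower in Head Gpr161 KO than in WT. Cd34 in the Head had 63.9 and 60.6 CPM (WT), 34.0 and 54.2 (Fuz KO), 49.9 and 51.1 (Gpr161 KO), and 45.4 and 55.6 (DKO). All mutant Head libraries lay below both WT libraries, with a log2 fold change of -0.30 ± 0.18 (SE; adjusted p = 0.555) in Gpr161 KO and -0.50 ± 0.18 (SE; adjusted p = 0.6) in Fuz KO. Cd34 in the Tail had 71.1 and 71.9 CPM (WT), 62.8 and 67.6 (Fuz KO), 68.6 and 85.2 (Gpr161 KO), and 66.3 and 73.0 (DKO). In the Tail, Fuz KO lay below WT and Gpr161 KO, and the other pairs of groups overlapped. The other members of this kind passed in no comparison: Pecam1 ran from 37.0 to 69.2 CPM in the Head and from 58.1 to 103 CPM in the Tail, Cldn5 ran from 17.2 to 33.6 CPM and from 29.1 to 48.3 CPM, and Icam2 ran from 6.38 to 15.4 CPM and from 9.60 to 14.7 CPM.

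Of the transcription factors, Erg is an ETS factor that maintains endothelial identity. Erg in the Head had 8.34 and 8.35 CPM (WT), 8.83 and 7.80 (Fuz KO), 15.4 and 15.1 (Gpr161 KO), and 9.87 and 9.16 (DKO). Both Head Gpr161 KO libraries lay above all other Head libraries, and Erg rose, with a log2 fold change of 0.87 ± 0.19 (SE; adjusted p = 0.0352, and from 0.183 to 0.329 with 1 library left out). Erg in the Tail had 20.9 and 18.7 CPM (WT), 25.1 and 16.9 (Fuz KO), 16.1 and 18.4 (Gpr161 KO), and 19.5 and 18.3 (DKO). In the Tail both Gpr161 KO libraries lay below both WT libraries, at a log2 fold change of -0.20 ± 0.19 (SE; adjusted p = 0.981). The difference of the 2 effects, Tail minus Head, was a log2 value of -1.07 ± 0.27 (SE; adjusted p = 0.212) by edgeR. It passed in DESeq2 (adjusted p = 0.0231). It also passed in edgeR with the library number within a genotype as a block (adjusted p = 0.0259), which assumes that numbers pair Head and Tail. Head WT was lower than Tail WT, with a log2 fold change of -1.25 ± 0.19 (SE; adjusted p = 0.00238), a call that held without each of the 4 libraries (adjusted p from 0.0109 to 0.0457 with 1 library left out). The call of Cdh5 in Head DKO against Head Gpr161 KO also held without each of its 4 libraries.

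Sox7, Sox17 and Sox18 are the SOX-F factors of vessel and lymphatic development. Sox18 in the Head had 14.1 and 12.9 CPM (WT), 12.4 and 12.9 (Fuz KO), 26.8 and 23.4 (Gpr161 KO), and 12.0 and 15.5 (DKO). Gpr161 KO did not overlap the other Head groups, and Sox18 rose, with a log2 fold change of 0.90 ± 0.19 (SE; adjusted p = 0.0315, and from 0.107 to 0.364 with 1 library left out). In Head DKO it was lower than in Head Gpr161 KO, with a log2 fold change of -0.87 ± 0.19 (SE; adjusted p = 0.0244, and from 0.0603 to 0.222 with 1 library left out). Sox18 in the Tail had 18.3 and 17.2 CPM (WT), 20.0 and 14.4 (Fuz KO), 24.2 and 22.2 (Gpr161 KO), and 19.7 and 16.4 (DKO). Both Tail Gpr161 KO libraries were the highest of the Tail, at a log2 fold change of 0.39 ± 0.19 (SE; adjusted p = 0.761). Sox17 in the Head had 5.41 and 5.02 CPM (WT), 20.0 and 6.83 (Fuz KO), 12.6 and 8.36 (Gpr161 KO), and 10.9 and 7.50 (DKO). The highest Sox17 value was in Head Fuz KO 1, and all mutant Head libraries lay above both WT libraries, with a log2 fold change of 1.36 ± 0.51 (SE; adjusted p = 0.6) in Fuz KO. Sox17 in the Tail had 10.6 and 10.4 CPM (WT), 26.6 and 9.41 (Fuz KO), 10.2 and 10.2 (Gpr161 KO), and 12.0 and 7.79 (DKO). Tail Fuz KO 1 was again the highest. Sox7 ran from 5.61 to 14.5 CPM in the Head, where both Gpr161 KO libraries were the highest, and from 7.11 to 14.4 CPM in the Tail. Fli1, another ETS factor, ran from 22.5 to 44.9 CPM and from 18.4 to 38.9 CPM, and Tal1, a factor of blood and endothelium, ran from 8.80 to 35.4 CPM and from 13.6 to 32.2 CPM. For both, the lowest library of each region was Fuz KO 1.

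The receptors include those of VEGF. Flt4 encodes VEGFR3, a receptor for the growth factors Vegfc and Vegfd. Flt4 in the Head had 25.1 and 19.7 CPM (WT), 19.5 and 17.4 (Fuz KO), 49.4 and 38.4 (Gpr161 KO), and 23.0 and 21.4 (DKO). Gpr161 KO lay above all other Head libraries, at a log2 fold change of 0.97 ± 0.26 (SE; adjusted p = 0.0768), and Head DKO was lower than Head Gpr161 KO, with a log2 fold change of -0.98 ± 0.26 (SE; adjusted p = 0.0493, and from 0.103 to 0.298 with 1 library left out). Flt4 in the Tail had 26.0 and 25.4 CPM (WT), 44.1 and 22.1 (Fuz KO), 35.7 and 38.6 (Gpr161 KO), and 25.4 and 20.9 (DKO). The highest Tail library was Fuz KO 1. Kdr, the main signalling receptor for Vegfa, ran from 65.3 to 135 CPM in the Head and from 92.0 to 147 CPM in the Tail and passed in no comparison.

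Tek encodes the angiopoietin receptor TIE2 and Tie1 encodes its relative. Tek in the Head had 25.9 and 22.7 CPM (WT), 14.8 and 21.0 (Fuz KO), 42.2 and 32.8 (Gpr161 KO), and 17.9 and 23.7 (DKO). Both Gpr161 KO libraries were the highest in the Head, at a log2 fold change of 0.63 ± 0.19 (SE; adjusted p = 0.14) against WT, and Head DKO was lower than Head Gpr161 KO, with a log2 fold change of -0.85 ± 0.19 (SE; adjusted p = 0.0275, and from 0.0505 to 0.242 with 1 library left out). Tek in the Tail had 33.2 and 36.8 CPM (WT), 41.2 and 38.6 (Fuz KO), 48.7 and 40.0 (Gpr161 KO), and 51.6 and 52.1 (DKO). In the Tail every mutant library lay above both WT libraries, and the DKO libraries were the highest, at a log2 fold change of 0.57 ± 0.19 (SE; adjusted p = 0.519). Tie1 in the Head had 38.0 and 36.8 CPM (WT), 32.7 and 31.3 (Fuz KO), 63.8 and 51.5 (Gpr161 KO), and 27.8 and 39.4 (DKO). Tie1 was highest in Head Gpr161 KO without overlap, at a log2 fold change of 0.62 ± 0.16 (SE; adjusted p = 0.0654), and lower in Head DKO than in Head Gpr161 KO, with a log2 fold change of -0.78 ± 0.16 (SE; adjusted p = 0.0156, and from 0.0127 to 0.159 with 1 library left out). Tie1 in the Tail had 47.9 and 48.2 CPM (WT), 54.2 and 46.4 (Fuz KO), 54.7 and 60.1 (Gpr161 KO), and 46.6 and 47.1 (DKO). Tail Gpr161 KO lay above the other Tail groups.

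Eng encodes endoglin, a co-receptor of the TGF-beta family that binds BMP9. Eng in the Head had 28.9 and 27.1 CPM (WT), 41.2 and 24.9 (Fuz KO), 62.2 and 59.2 (Gpr161 KO), and 33.9 and 32.4 (DKO). Both Gpr161 KO libraries stood above the other 6, and Eng rose, with a log2 fold change of 1.12 ± 0.26 (SE; adjusted p = 0.0474, and from 0.181 to 0.389 with 1 library left out). Eng in the Tail had 25.7 and 27.1 CPM (WT), 30.3 and 25.7 (Fuz KO), 28.8 and 37.4 (Gpr161 KO), and 41.5 and 23.1 (DKO). Tail Gpr161 KO lay above WT and overlapped DKO and was at a log2 fold change of 0.33 ± 0.26 (SE; adjusted p = 0.961) against WT.

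In the Notch pathway, Notch4 encodes the receptor largely restricted to endothelium. Notch4 in the Head had 15.5 and 15.8 CPM (WT), 14.6 and 15.7 (Fuz KO), 28.4 and 23.2 (Gpr161 KO), and 16.5 and 16.8 (DKO). Both Gpr161 KO libraries were the highest, and Notch4 rose, with a log2 fold change of 0.72 ± 0.17 (SE; adjusted p = 0.0409, and from 0.0898 to 0.418 with 1 library left out). In Head DKO it was lower than in Head Gpr161 KO, with a log2 fold change of -0.63 ± 0.16 (SE; adjusted p = 0.0489, and from 0.0994 to 0.35 with 1 library left out). Notch4 in the Tail had 19.7 and 26.1 CPM (WT), 22.9 and 21.8 (Fuz KO), 28.8 and 30.7 (Gpr161 KO), and 18.2 and 15.8 (DKO). Tail Gpr161 KO was the highest Tail group and Tail DKO the lowest, both without overlap. Tail DKO against Tail Gpr161 KO gave a log2 fold change of -0.81 ± 0.16 (SE; adjusted p = 0.0539), and DESeq2 called it at an adjusted p of 0.000357. Dll4, a Notch ligand of arteries and sprouting tips, ran from 6.42 to 16.3 CPM in the Head and from 6.46 to 16.9 CPM in the Tail, and Gja5, which encodes the arterial gap junction protein connexin 40, ran from 1.87 to 19.4 CPM and from 2.45 to 33.1 CPM.

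Rasip1 encodes a Ras-interacting protein needed for vessel lumens. Rasip1 in the Head had 10.4 and 10.47 CPM (WT), 7.40 and 7.18 (Fuz KO), 16.7 and 13.9 (Gpr161 KO), and 7.00 and 9.02 (DKO). Both Gpr161 KO libraries were the highest, at a log2 fold change of 0.55 ± 0.21 (SE; adjusted p = 0.271), and all Fuz KO and DKO libraries lay below WT. Head DKO was lower than Head Gpr161 KO, with a log2 fold change of -0.93 ± 0.22 (SE; adjusted p = 0.0293, and from 0.0776 to 0.243 with 1 library left out). Rasip1 in the Tail had 12.5 and 12.8 CPM (WT), 11.9 and 8.45 (Fuz KO), 14.4 and 16.4 (Gpr161 KO), and 11.7 and 9.44 (DKO). The same order of Gpr161 KO above WT, and WT above Fuz KO and DKO, held in the Tail without overlap.

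Mmrn2 encodes multimerin 2, an endothelial matrix protein that binds Clec14a. Mmrn2 in the Head had 19.2 and 16.9 CPM (WT), 15.0 and 14.8 (Fuz KO), 29.7 and 22.5 (Gpr161 KO), and 14.1 and 16.9 (DKO). Gpr161 KO was the highest Head group, at a log2 fold change of 0.53 ± 0.17 (SE; adjusted p = 0.17), and Head DKO was lower than Head Gpr161 KO, with a log2 fold change of -0.75 ± 0.17 (SE; adjusted p = 0.029, and from 0.0369 to 0.27 with 1 library left out). Mmrn2 in the Tail had 22.2 and 27.5 CPM (WT), 20.4 and 18.7 (Fuz KO), 26.6 and 26.3 (Gpr161 KO), and 18.6 and 20.1 (DKO). Fuz KO and DKO lay below WT in the Tail. Clec14a in the Head had 15.0 and 12.6 CPM (WT), 16.6 and 12.7 (Fuz KO), 15.5 and 18.8 (Gpr161 KO), and 16.4 and 14.4 (DKO). In the Head both Gpr161 KO libraries were above both WT libraries, and the other pairs of groups overlapped. Clec14a in the Tail had 14.2 and 15.7 CPM (WT), 15.8 and 15.7 (Fuz KO), 18.7 and 19.6 (Gpr161 KO), and 25.2 and 17.6 (DKO). Every Gpr161 KO and DKO library of the Tail was above both WT libraries, with a log2 fold change of 0.52 ± 0.20 (SE; adjusted p = 0.621) in DKO.

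Nos3 encodes endothelial nitric oxide synthase. Nos3 in the Head had 8.46 and 7.88 CPM (WT), 4.67 and 6.47 (Fuz KO), 11.2 and 9.19 (Gpr161 KO), and 4.95 and 6.82 (DKO). Gpr161 KO lay above WT and both Fuz KO and DKO lay below it. Nos3 in the Tail had 7.95 and 8.58 CPM (WT), 4.33 and 7.06 (Fuz KO), 10.8 and 12.0 (Gpr161 KO), and 6.26 and 6.83 (DKO). The Tail had the same order without overlap, with a log2 fold change of -0.54 ± 0.27 (SE; adjusted p = 0.816) in Fuz KO.

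Apln encodes apelin, the ligand of the receptor Aplnr, and marks sprouting endothelium. Apln in the Head had 9.96 and 10.0 CPM (WT), 18.4 and 8.11 (Fuz KO), 20.1 and 21.1 (Gpr161 KO), and 25.7 and 12.5 (DKO). Both Gpr161 KO libraries and both DKO libraries lay above WT, at a log2 fold change of 1.04 ± 0.44 (SE; adjusted p = 0.335) and 0.93 ± 0.44 (SE; adjusted p = 0.957). Apln in the Tail had 9.86 and 8.37 CPM (WT), 19.3 and 9.68 (Fuz KO), 21.4 and 15.8 (Gpr161 KO), and 20.4 and 12.3 (DKO). Tail Gpr161 KO and Tail DKO were also above WT, with a log2 fold change of 1.03 ± 0.44 (SE; adjusted p = 0.67) for Gpr161 KO.

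Esm1 encodes endocan, a proteoglycan of tip cells. Esm1 in the Head had 1.84 and 1.22 CPM (WT), 6.98 and 2.83 (Fuz KO), 5.42 and 4.70 (Gpr161 KO), and 9.33 and 3.08 (DKO). All mutant Head libraries lay above both WT libraries, and DKO was at a log2 fold change of 2.02 ± 0.71 (SE; adjusted p = 0.957). Esm1 in the Tail had 2.06 and 2.33 CPM (WT), 7.84 and 2.27 (Fuz KO), 5.97 and 3.10 (Gpr161 KO), and 5.91 and 2.39 (DKO). The Tail libraries numbered 1 of the 3 mutants were the highest. Lyve1 encodes a hyaluronan receptor of lymphatic endothelium and of some macrophages. Lyve1 in the Head had 0.224 and 1.03 CPM (WT), 0.0519 and 0.452 (Fuz KO), 1.58 and 1.12 (Gpr161 KO), and 0.0942 and 0.237 (DKO). It had few counts, with both Gpr161 KO libraries the highest of the Head, and DKO was at a log2 fold change of -1.90 ± 0.89 (SE; adjusted p = 0.957) against WT. Lyve1 in the Tail had 0.67 and 0.823 CPM (WT), 0.258 and 0.395 (Fuz KO), 1.99 and 0.775 (Gpr161 KO), and 1.11 and 0.979 (DKO). In the Tail, Fuz KO lay below WT, DKO above it, and Gpr161 KO overlapped it.

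The remaining 5 members, none called, are secreted or surface proteins. Egfl7, a secreted vessel protein, ran from 20.1 to 40.4 CPM in the Head and from 28.8 to 41.1 CPM in the Tail. Robo4, an endothelial guidance receptor, ran from 7.76 to 14.4 CPM and from 7.56 to 14.1 CPM. Ramp2, the partner of the adrenomedullin receptor Calcrl, ran from 12.2 to 23.4 CPM and from 18.1 to 27.9 CPM. Ecscr, a surface protein of endothelium, ran from 7.25 to 12.5 CPM and from 9.96 to 18.0 CPM, and Aplnr ran from 17.2 to 46.3 CPM and from 35.8 to 56.5 CPM. Over all 14 comparisons planned, 12 of 35 members were called at least once and 23 never. The share of all genes called at least once was not computed, so this count describes the members alone. The calls came from Head Gpr161 KO against WT, Head DKO against Head Gpr161 KO and Head WT against Tail WT. Of all genes, 2.02%, 4.16% and 3.77% were called in these, in either direction.

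Some genes listed for the vessel wall and its pathways also rose in Head Gpr161 KO, where 1.51% of all genes rose. Of 22 tested partners in the VEGF, angiopoietin, apelin and Notch pathways, 4 rose and 0 fell, with a median of 0.69. They were Nrp1 (log2 1.22, adjusted p = 0.00289) and Nrp2 (log2 1.26, adjusted p = 0.00565), which encode neuropilins, the co-receptors of VEGF, Slit2 (log2 1.61, adjusted p = 0.00667), a guidance ligand, and Apela (log2 2.11, adjusted p = 0.0255), a second ligand of Aplnr. Of 18 endothelial transcription factors outside the members 1 rose, Mef2c (log2 1.08, adjusted p = 0.0439), with a median of 0.65. Of 27 further endothelial genes 3 rose, Vwf (log2 1.04, adjusted p = 0.0107), Cd93 (log2 0.70, adjusted p = 0.0344) and Gpr182 (log2 1.82, adjusted p = 0.0412), with a median of 0.51. The 12 arterial and venous genes hold the neuropilins again and had a median of 0.43, with 2 risen. Of 4 lymphatic genes 0 passed, with a median of 0.54. In Head DKO against Head Gpr161 KO, the same lists had 4 of 22 (with 1 risen, Vegfd), 5 of 18, 2 of 27 and 3 of 12 genes lower, and 1 of 4 lymphatic genes, Pdpn, higher. Of all genes, 3.13% were lower in that comparison and 1.03% higher. In Head Gpr161 KO 0 genes of these lists fell, where 0.507% of all genes fell. In Tail Gpr161 KO against WT none of the genes named as risen passed. Slit2 (log2 -0.52) and Mef2c (log2 -0.82) lay below 0 there, and the others above 0. The cardiomyocyte genes, given next, were likewise higher in Head Gpr161 KO and lower in Tail Gpr161 KO than in WT. The part of such tissue in the Mef2c values was not tested.

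Markers of other cell types moved as well, and of all genes 1.51% rose in Head Gpr161 KO. In Head Gpr161 KO the 18 cardiomyocyte genes summed to 582 and 2729 CPM, against 12.6 to 15.6 CPM in Head WT, and 12 of 18 rose. In Head WT Nppa and Hspb7 had 0 counts in both libraries. Mural cell genes summed to 640 to 770 CPM against 291 to 315 in WT, with 4 of 12 risen (Cnn1, Cspg4, Abcc9 and Acta2). In these 4 the Gpr161 KO effect, Tail minus Head, was -4.34, -1.59, -2.17 and -3.71, below 0 as in the cardiomyocyte genes. In Pdgfrb, Pdgfb, Notch3 and Anpep it was 0.14, 0.17, -0.24 and -0.16. In Rgs5, Tagln, Myh11 and Kcnj8 it was -1.05, -0.30, -2.35 and 2.14. None of these differences passed, and whether mural cells themselves changed was not tested. Endocardial genes summed to 275 to 341 CPM against 149 to 163, with 2 of 6 risen (Tbx20 and Npr3). Hypoxia and glycolysis genes summed to 10370 to 14930 CPM against 6795 to 6985, with 0 of 23 called, and of 10 Hedgehog targets 7 rose. Red blood cell genes (7628 to 10490 CPM against 7421 to 9306) and white blood cell genes (62.4 to 153 CPM against 75.8 to 116) overlapped WT. In the Tail, the cardiomyocyte genes were lower in Gpr161 KO (36.7 to 41.3 CPM) than in WT (79.7 to 184), while the median of the members over the 2 Gpr161 KO libraries was 0.32 and 0.37 above the WT mean. In the Head it was 0.85 in Gpr161 KO 1 and 0.46 in Gpr161 KO 2, whose cardiomyocyte sums were 2729 and 582 CPM. With the 18 cardiomyocyte genes removed from the counts, 6 members rose. That setting leaves all other RNA of such tissue in the counts, so it cannot show its part. The part of these other cell types in the members' values was not tested.

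**Figure D4:**
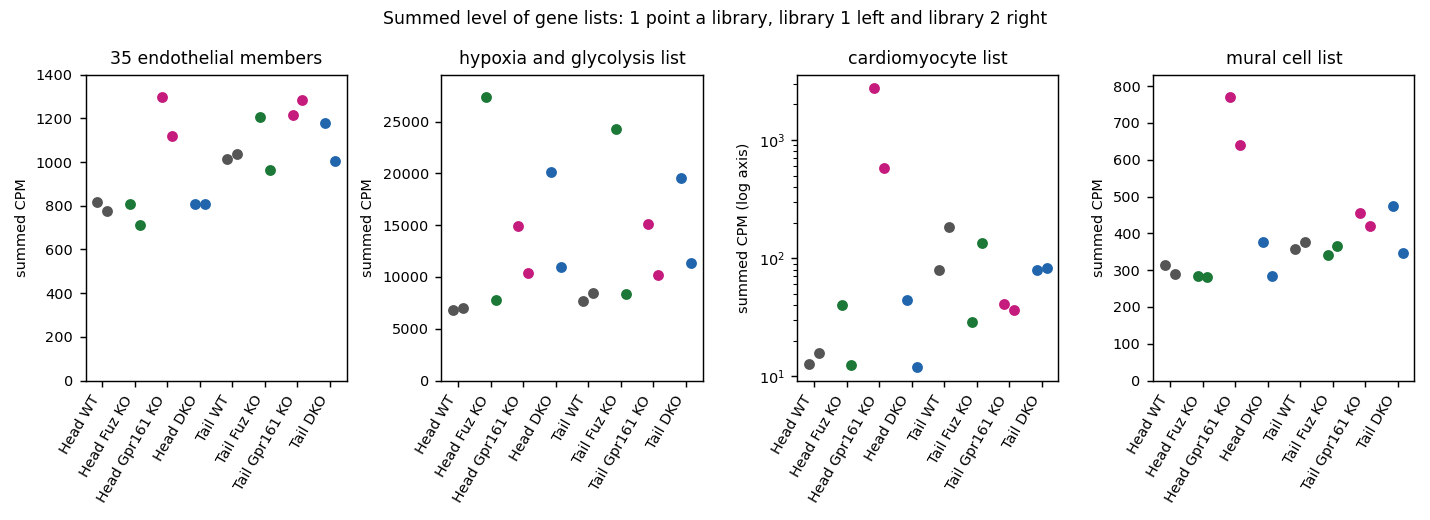
Summed CPM of the 35 members, the hypoxia and glycolysis list, the cardiomyocyte list (log axis) and the mural cell list, 1 point a library, with library 1 left and library 2 right. The members are highest among the Head groups in Gpr161 KO (1120 and 1297 CPM), where the cardiomyocyte and mural lists are also highest, and the hypoxia list is highest in Fuz KO 1 and DKO 1.

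A few members differed between the libraries numbered 1 and 2 of Fuz KO or DKO. Flt1, Esm1 and Sox17 were at least 2-fold higher in Fuz KO 1 than in Fuz KO 2 in both regions. They were 3 of 35 (8.57%), where 4.3% of all genes did the same. Gja5 was at least 2-fold lower in both, 1 of 35 (2.86%), where 3.9% of all genes did. Flt1 and Esm1 were also at least 2-fold higher in DKO 1 than in DKO 2 in both regions, 2 of 35 (5.71%) where 1.77% of genes did. With so few members, these splits describe single genes and are no trait of the 35. Flt1 encodes VEGFR1, which binds Vegfa and acts largely as a decoy. Flt1 in the Head had 28.8 and 26.9 CPM (WT), 74.1 and 26.3 (Fuz KO), 74.4 and 53.1 (Gpr161 KO), and 73.2 and 28.6 (DKO). Flt1 in the Tail had 27.5 and 28.3 CPM (WT), 83.6 and 27.0 (Fuz KO), 55.9 and 50.2 (Gpr161 KO), and 74.5 and 33.0 (DKO). Fuz KO 1 and DKO 1 lay within or above the range of the Gpr161 KO libraries, and Fuz KO 2 and DKO 2 lay close to WT. Flt1 and Gja5 were singled out after their values had been seen. Gja5 in the Head had 9.20 and 11.2 CPM (WT), 1.87 and 9.42 (Fuz KO), 19.4 and 13.9 (Gpr161 KO), and 4.66 and 7.38 (DKO). Gja5 in the Tail had 12.8 and 33.1 CPM (WT), 2.45 and 17.4 (Fuz KO), 28.2 and 27.0 (Gpr161 KO), and 11.1 and 19.0 (DKO). Gja5 was lowest in Fuz KO 1 in both regions. It also differed between the Tail WT libraries (log2 -1.37, library 1 minus library 2), so its split is not particular to Fuz KO. Vegfa, a ligand of Flt1 that rises in low oxygen, had 356 and 62.2 CPM in the Head libraries of Fuz KO, 285 and 72.2 in those of DKO, and 51.7 and 60.4 in those of WT. The Tail values were 319.9 and 59.1 CPM (Fuz KO), 213 and 67.5 (DKO), and 50.9 and 63.6 (WT). In Tail Gpr161 KO, Vegfa had a log2 fold change of 0.93 ± 1.03 against WT (SE; adjusted p = 0.992 by edgeR). The differences between single libraries have no test, and the part of the hypoxia and glycolysis genes in them was not tested. Gpr161 also differed, at 25.4 and 52.5 CPM in the Head libraries of Fuz KO and 24.3 and 42.7 CPM in the Tail ones. Its part in these differences was not tested either.

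**Figure D5:**
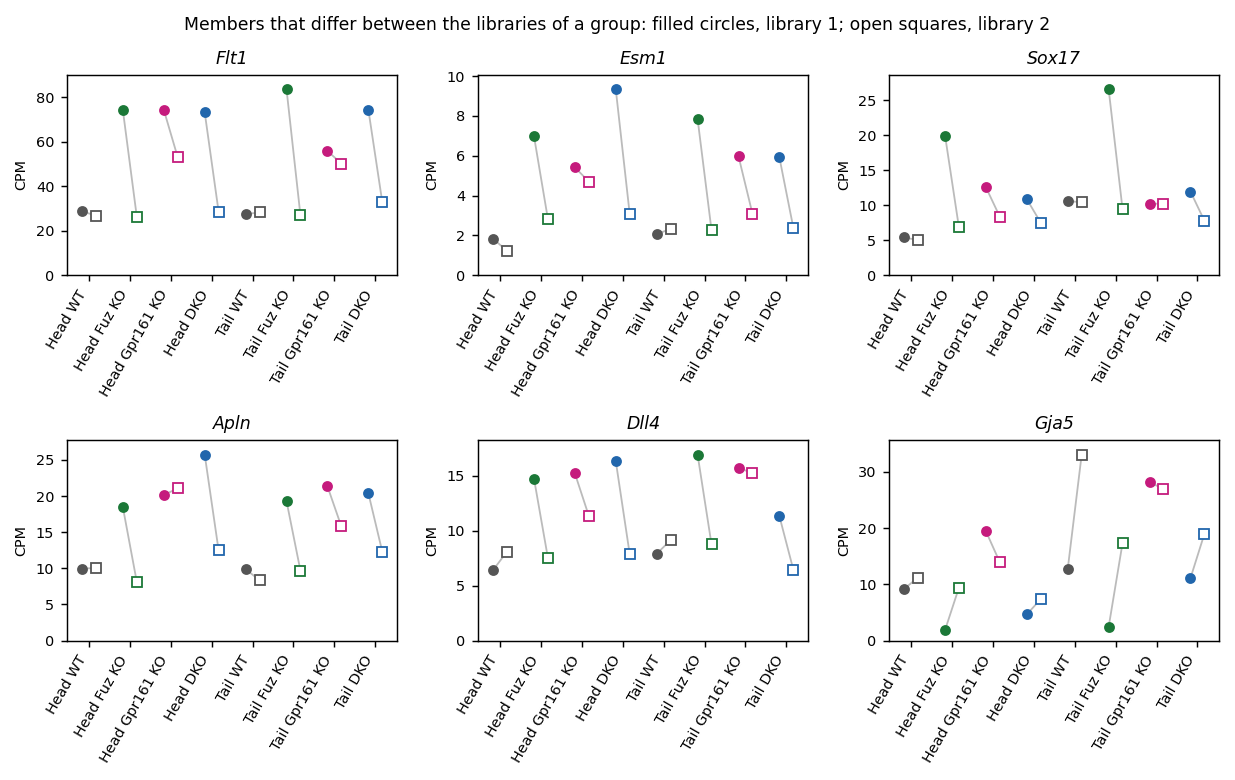
CPM of 6 members in each group, chosen after their values had been seen, with library 1 as a filled circle and library 2 as an open square joined by a line. The lines are long in Fuz KO and DKO for Flt1 and Esm1, and Gja5 in Fuz KO and in Tail WT slopes the other way.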

How the data were processed

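RNA of Head and Tail parts of mouse embryos was sequenced from poly-A selected libraries (NEBNext Ultra), per the labels' protocols. The authors deposited 1 table of raw counts per library, with no normalization. The submitters' processing notes name the build GRCm39 and the tools STAR 2.7.1a, featureCounts 1.6.0, HTSeq, StringTie 2.0.4, Picard 2.20.4, Trimmomatic and FastQC; which tool counted, with which annotation and strand setting, is not given in the sources used here. Members that overlap other genes could therefore share counts with them.

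Groups came from the titles. Names and exon lengths came from GENCODE M21, which matched 54809 of 54838 identifiers and all 35 members. Counts were filtered with filterByExpr (21284 genes) and fitted in edgeR 4.0.16 (R 4.3.3, TMM scaling, robust quasi-likelihood F-test). The 1 model of 16 libraries and 8 group coefficients left 8 residual degrees of freedom. The common BCV, edgeR's coefficient of variation between libraries beyond counting noise, was 0.257. P-values were adjusted by Benjamini and Hochberg's method across the tested genes, separately for each comparison, and an adjusted p under 0.05 counted as a call. SE is the absolute log2 fold change over the square root of F. CPM use TMM-adjusted totals, and list medians per library use log CPM with a prior count of 2.

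The members and lists were chosen with earlier results of these data known. A member is given in every library if it was called in a planned comparison or was among the 3 lowest adjusted p-values of a mutant against WT, which named 20 of 35. There were 14 planned comparisons and 2 added ones. The alternatives were RLE scaling, no filter, at least 5 CPM in 2 libraries, each region alone, the library number as a block (over all libraries, or within a genotype), DESeq2 1.42.0, removal of haemoglobin and mitochondrial genes, and each library left out. A further 5 were added after the data were seen: without both Fuz KO 1 libraries, without those and both DKO 1 libraries, without both Gpr161 KO 1 libraries, sex as a term, and without cardiomyocyte genes. Where a group kept 1 library, that library was taken to vary as the rest do. Head and Tail deviations of the same number and genotype correlated across genes with r of 0.133 (WT) to 0.437 (Fuz KO). Between genotypes in a region r ran from -0.0787 to 0.302 (Head Fuz KO with Head DKO). These ranges overlap, so they do not settle which libraries are paired. That numbers pair the regions within a genotype, and do not pair genotypes, is an assumption, weakest for WT. The block within a genotype rests on it, and the main model uses no pairing. Promoter sequences are RefSeq's, matched by symbol. The fit was tested on simulated data.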

Additional observations from a re-analysis of the deposited data

How the results depend on the processing

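The number of members called moved with the settings, while no called member changed sign in any of them. For the alternatives, here and above, the share of all genes called is not given, so these counts describe the members alone. A higher count under a setting is therefore not shown to be particular to the members. Erg in Head WT against Tail WT was the single call among 18 that held in all 16 of its alternatives. Head Gpr161 KO against WT had 6 members called as reported and 13 without the filter, 1 with the Head fitted alone, 3 without haemoglobin and mitochondrial genes, 14 without both Fuz KO 1 libraries, 19 without both Fuz KO 1 and both DKO 1 libraries, 0 without both Gpr161 KO 1 libraries and 2 with sex as a term. Head DKO against Head Gpr161 KO had 9, and 15 without the filter, 3 with the Head alone, 14 with DESeq2, 15 without both Fuz KO 1 libraries and 0 without both Gpr161 KO 1 libraries. Head WT against Tail WT had 3, and 6 without the filter, 5 with DESeq2, 10 with the replicate block within a genotype, 6 without both Fuz KO 1 libraries and 8 without both Fuz KO 1 and both DKO 1 libraries.

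Comparisons with 0 calls gained some. Without the filter there were 4 in Head Fuz KO, 3 in Head DKO and 2 each in Tail Fuz KO and Tail Gpr161 KO against WT, 1 in Tail DKO against WT, 2 in Tail DKO against Tail Gpr161 KO, and 4 and 3 in the Head and Tail departures from additivity. Tail DKO against Tail Gpr161 KO had 1 with the 5 CPM filter, 1 with the replicate block over all libraries, 1 with DESeq2, 3 without both Fuz KO 1 libraries and 8 without both Fuz KO 1 and both DKO 1 libraries, where Tail Gpr161 KO against WT had 3. The Gpr161 KO effect, Tail minus Head, had 1 with DESeq2, 1 with the replicate block within a genotype, 1 without both Fuz KO 1 libraries and 2 without both Fuz KO 1 and both DKO 1 libraries, and the Head departure from additivity had 1 with DESeq2. The replicate block moved no other count of members by over 1.5 times. The cause was not tested.

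Leaving out each library in turn gave 0 to 2 calls in Head Gpr161 KO against WT, 1 to 4 in Head DKO against Head Gpr161 KO, 1 in all 4 runs of Head WT against Tail WT, 0 to 7 in Head Fuz KO against WT, 0 to 3 and 0 to 1 in the Head and Tail departures from additivity, and 0 elsewhere. Over all alternatives the members' median stayed between 0.44 and 0.83 in Head Gpr161 KO against WT and between -0.69 and -0.54 in Head DKO against Head Gpr161 KO. It moved more in 3 others that were below 0 throughout: from -0.39 to -0.14 in Tail DKO against Tail Gpr161 KO (-0.15 as reported), from -0.455 to -0.11 in the Gpr161 KO effect, Tail minus Head (-0.29 as reported), and from -0.45 to -0.06 in the Tail departure from additivity (-0.26 as reported). The medians that changed sign among the alternatives were those of Fuz KO and DKO against WT, of DKO against Fuz KO, in both regions, and of the Fuz KO and DKO effects, Tail minus Head. Depth limits Lyve1, with 2 to 84 counts.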

Other observations

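Gata2, a transcription factor of blood, endothelium and neurons, stood against the direction of the vessel genes between the WT regions, with 26.2 and 28.5 CPM in Head WT and 8.93 and 8.60 CPM in Tail WT (log2 1.64, adjusted p = 0.000402 by edgeR's quasi-likelihood test). Ets1, an ETS factor, was lower in Head WT (70.6 and 65.9 CPM) than in Tail WT (107.8 and 106.5 CPM), with a log2 fold change of -0.65 (adjusted p = 0.0135). Calcrl, the adrenomedullin receptor that pairs with Ramp2, was also lower in Head WT (16.2 and 16.2 CPM against 32.1 and 40.1 CPM; log2 -1.16, adjusted p = 0.00273).

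Etv2, the ETS factor that starts the endothelial lineage and is switched off as vessels mature, was near the limit of detection, at 0.0466 to 0.838 CPM in the Head and 0.407 to 1.65 CPM in the Tail. Prox1, the factor of lymphatic fate that is also expressed in heart muscle and in nervous tissue, was at 30.8 and 23.7 CPM in Head Gpr161 KO and 13.0 and 16.3 CPM in Head WT, which did not pass (log2 0.90, adjusted p = 0.0957).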
